A study of Homo sapiens with 95 samples.

Results

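The 10 genes described here encode glutathione transferases and other phase II enzymes: GSTP1, GSTO1, GSTM3, GSTA4, GSTK1, MGST1, MGST2, MGST3, EPHX1 and UGT1A6. They were chosen by gene symbol, 10 of the 27978 genes listed in every count file, and all 10 passed the filter on low counts (more than 1 read on average) in every comparison. They were measured by sparse full length (SFL) sequencing, a pooled RNA-seq method with barcoded samples, in 95 samples of AALE, a bronchial epithelial cell line of human origin that was immortalized. Each sample combined 1 of 8 genotypic perturbations with 1 of 4 treatments, which gave 3 samples in 31 combinations and 2 in the CSC-treated FGFR1 line.

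The genotypic perturbations were CRISPR knockout of FAT1 or CDKN2A, with cells given the pSpCas9-EGFP plasmid and no guide RNA (GFP) as control, and overexpression of NRF2 (gene NFE2L2), FGFR1, NRG1 or PIK3CA, with the empty HcRed reporter vector as control. The treatments were cigarette smoke condensate (CSC) at 24 μg/ml, benzo(a)pyrene (BaP) at 173 μM, the tobacco nitrosamine NNK at 490 μM, or the solvent DMSO. The duration of exposure, and whether a knockout line was 1 clone, are not given in the sources used here. Samples of a combination are separate samples of 1 line, which the paper calls biological replicates. The p-values measure the spread between those samples, which may be technical. In comparisons joined over all treatments or all genotypes, the spread also holds differences of the effect between those treatments or genotypes. FAT1 and CDKN2A share the GFP samples, the 4 overexpression lines share the HcRed samples, and the 3 chemicals share the DMSO samples.

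Phase II enzymes make reactive or oily compounds soluble by joining them to glutathione, glucuronic acid or another polar group. Glutathione transferases (GSTs) join glutathione to electrophiles such as the diol epoxides of BaP, epoxide hydrolase opens epoxides with water, and UDP-glucuronosyltransferases (UGTs) join glucuronic acid to phenols and alcohols. Airway epithelium is known for a high level of the pi class enzyme GSTP1. In general, many of these genes carry antioxidant response elements (AREs), which NRF2 binds, or xenobiotic response elements (XREs), which the aryl hydrocarbon receptor binds after exposure to compounds such as BaP.

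The upstream windows of GSTP1, EPHX1, UGT1A6 and MGST1 are shown as examples, chosen with the differences below known. GSTM3 and GSTK1 also had large differences, and their windows are not shown. Each line holds the 250 bases before a RefSeq transcription start, 5′ to 3′ on the gene's plus strand, at positions on GRCh37. The RefSeq table is of another build, and its windows were placed on GRCh37 by an exact match. Capitals mark the ARE core, TGACNNNGC, or the XRE core, GCGTG, on either strand (CACGC on the other strand).
GSTP1 (chr11:67351033-67351282): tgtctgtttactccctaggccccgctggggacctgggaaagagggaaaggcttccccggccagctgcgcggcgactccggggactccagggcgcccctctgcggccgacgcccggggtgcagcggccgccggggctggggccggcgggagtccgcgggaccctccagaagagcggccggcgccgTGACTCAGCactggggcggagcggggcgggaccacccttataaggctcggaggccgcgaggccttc
EPHX1 (chr1:226012805-226013054): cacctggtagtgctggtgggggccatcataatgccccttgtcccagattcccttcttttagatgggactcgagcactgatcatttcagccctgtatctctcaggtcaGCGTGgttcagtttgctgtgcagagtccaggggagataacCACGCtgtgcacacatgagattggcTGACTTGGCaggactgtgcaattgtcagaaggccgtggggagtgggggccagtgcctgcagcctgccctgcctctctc
UGT1A6 (chr2:234600098-234600347): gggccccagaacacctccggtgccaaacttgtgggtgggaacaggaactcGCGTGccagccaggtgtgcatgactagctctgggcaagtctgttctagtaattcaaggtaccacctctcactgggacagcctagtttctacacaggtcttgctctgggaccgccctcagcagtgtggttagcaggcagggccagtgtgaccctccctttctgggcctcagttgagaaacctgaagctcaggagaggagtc
UGT1A6 (chr2:234601286-234601535): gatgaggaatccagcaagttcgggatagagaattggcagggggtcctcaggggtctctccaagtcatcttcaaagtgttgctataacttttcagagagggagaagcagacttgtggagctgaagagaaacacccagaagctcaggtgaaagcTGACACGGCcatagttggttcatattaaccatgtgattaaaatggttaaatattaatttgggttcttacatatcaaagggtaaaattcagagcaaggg
MGST1 (chr12:16500329-16500578): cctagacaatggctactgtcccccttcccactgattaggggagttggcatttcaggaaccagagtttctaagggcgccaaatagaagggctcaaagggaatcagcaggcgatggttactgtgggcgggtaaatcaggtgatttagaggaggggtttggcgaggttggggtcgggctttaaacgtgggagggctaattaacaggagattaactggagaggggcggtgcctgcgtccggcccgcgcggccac

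The GSTP1 window held an ARE core between 66 and 58 bases before the start, whose first letters are also those of the AP-1 element. An ARE core lay in at least 1 window of 5 of the 9 members that have one in the table (GSTP1, EPHX1, UGT1A6, GSTA4 and GSTO1), and it lay in 10.9% of the 35116 windows of all genes. An XRE core lay in a window of 4 of the 9 (GSTM3, MGST3, EPHX1 and UGT1A6) and in 32.2% of all windows. Of the 14 member windows, 5 held an ARE core and 4 an XRE core. EPHX1 and MGST1 have other windows in the table, which held neither core. These matches describe letters in the windows and no binding.

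The counted reads per sample were between 287446 and 2116383, with a median of 934235, so that 3 reads stood at 1.42 to 10.4 CPM (counts scaled to a fixed library size). Levels below are CPM after TMM scaling of the library sizes, and log2 fold changes and adjusted p-values come from limma on voom-transformed counts with Benjamini-Hochberg adjustment over all genes tested. The overexpressed genes were at 6.75 times (NFE2L2), 22.7 times (FGFR1), 301 times (NRG1) and 6.27 times (PIK3CA) the mean of HcRed. FAT1 and CDKN2A reads were at 0.28 and 0.463 of the mean of GFP, and a knockout need not remove the transcript. Outside the NRG1 line, 8 libraries held NRG1 above 60 CPM, namely the 3 of NRF2 with CSC, 2 of FGFR1 with DMSO, and 1 each of FGFR1 with BaP, CDKN2A with DMSO and FAT1 with CSC. The other lines had a median of 21.46 CPM for this gene, and the NRG1 line was at 4655 CPM or above. Without these 8 libraries, the number of members past the threshold was unchanged in the 7 comparisons over all treatments or genotypes that contain them. The values of NRF2 with CSC alone rest on such libraries and have no fit without them. All 9 markers of basal bronchial epithelium, KRT5 and TP63 among them, averaged 10 or more reads and together came to 4934 to 14414 CPM. Of the 22 markers of ciliated, secretory, fibroblast, blood and endothelial cells, COL1A1 and CD68 reached that count, and CD3E and HBB had no read in any sample.

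In the DMSO samples of the 2 control lines (n = 6), levels per kilobase of transcript were highest for GSTP1, at 458 ± 46.5 CPM per kilobase (SD). MGST1 followed at 230 ± 20.1 and GSTO1 at 79.4 ± 14.8 CPM per kilobase, and the ranges of these 3 genes did not overlap. GSTK1 was at 48.5 ± 12 and MGST3 at 29.7 ± 8.29 CPM per kilobase, and each overlapped the gene above it. EPHX1, MGST2 and GSTA4, at 15.1 ± 2.35, 14.4 ± 4.97 and 11.6 ± 4.15 CPM per kilobase, overlapped each other. GSTM3 was at 5.82 ± 1.3 CPM per kilobase and overlapped GSTA4, and UGT1A6 stood below all others at 2.1 ± 0.71. UGT1A6 had between 0 and 19 reads per sample, and 44.2% of the exon bases of its gene model are shared with other UGT1A genes, so its values are uncertain. MGST2 shares 7.94% of its exon bases with MAML3 and EPHX1 shares 1.13% with TMEM63A. Other members share none with another gene, although GSTs of 1 class resemble each other in sequence.

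The members differed in whether the line or the treatment went with their level. In an additive description of log2 CPM over the 95 samples, genotype accounted for 62.8% of the variance of GSTO1 and treatment for 2.44%. GSTK1 (56.3% and 6.68%), GSTM3 (54.6% and 13.6%) and MGST3 (45.3% and 4.05%) also had a larger share for genotype than for treatment. For EPHX1 the shares were 16.3% for genotype and 52.1% for treatment. GSTP1 had 44.3% and 40.2%, and MGST1 had 50.3% and 36.1%. For GSTA4, MGST2, MGST3 and UGT1A6, between 45.7% and 62.1% of the variance was left over. GSTA4 had a median of 12, MGST2 of 9 and UGT1A6 of 5 reads per sample.

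**Figure D1:**
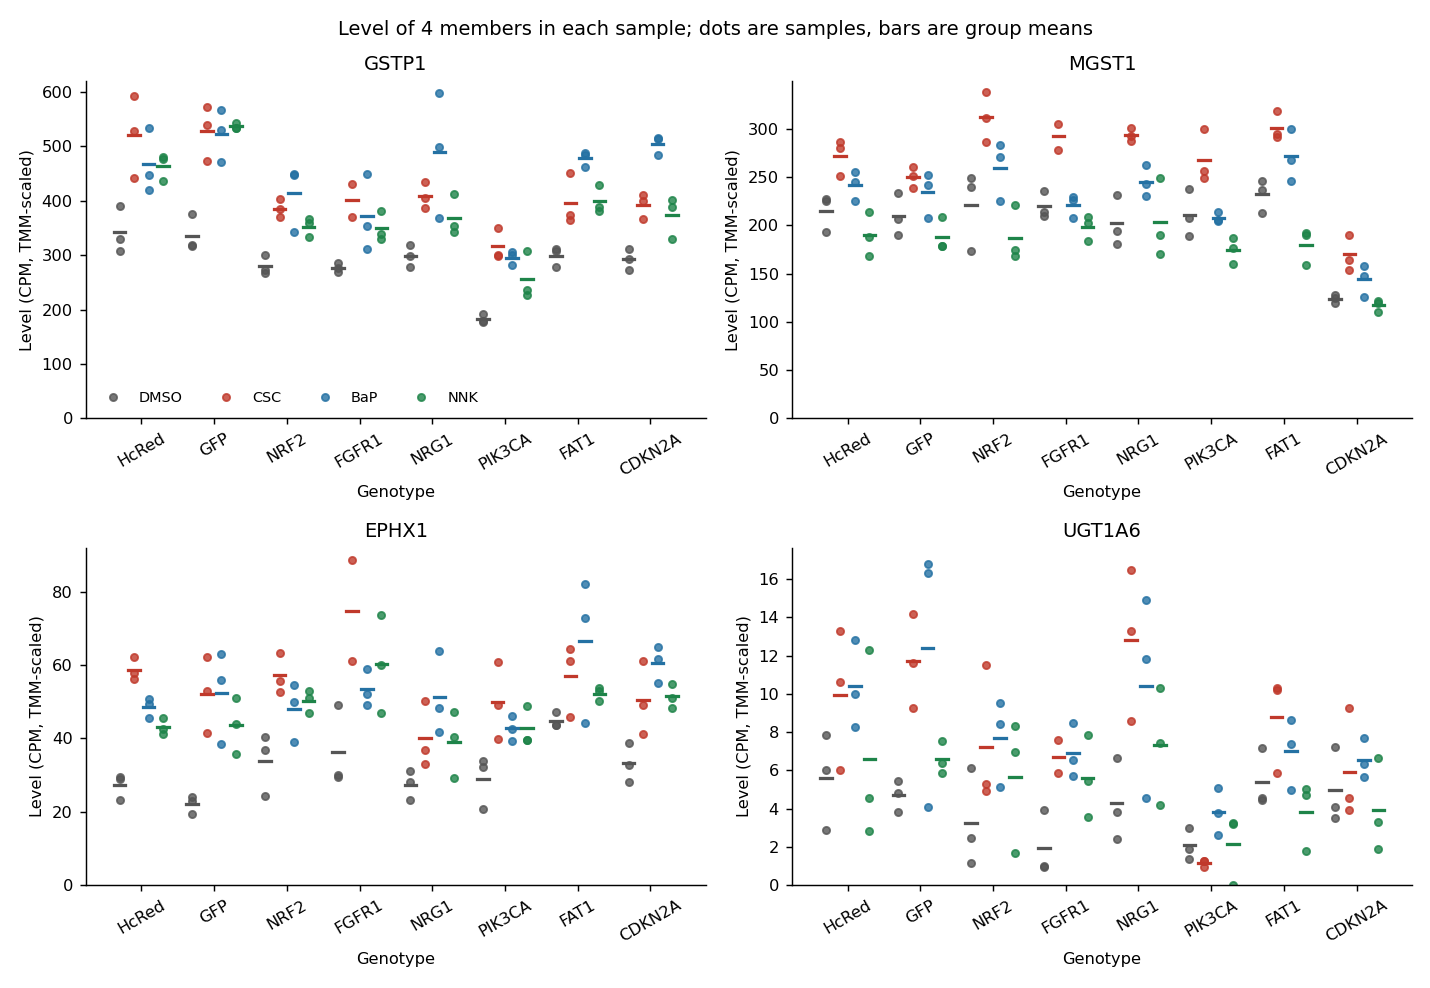
Level of GSTP1, MGST1, EPHX1 and UGT1A6 in CPM after TMM scaling (y axes, starting at 0) in each sample by genotype (x axes), with dots for samples, short bars for group means and colours for the 4 treatments. GSTP1 was lowest in PIK3CA cells with DMSO, at 177 to 191 CPM, MGST1 was low in all treatments of CDKN2A cells, and EPHX1 was lowest in most lines with DMSO.

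GSTP1 (chr11:67351213-67354127, plus strand), the pi class enzyme, was lower in each of the 6 perturbed lines than in its control over all treatments. In HcRed cells with DMSO the 3 samples were at 330, 390 and 307 CPM, and in GFP cells at 319, 375 and 316 CPM. PIK3CA cells with DMSO were at 191, 179 and 177 CPM. All 12 PIK3CA samples lay between 177 and 349 CPM and the 12 HcRed samples between 307 and 592, and within each treatment no PIK3CA sample reached the HcRed range. The log2 fold change was -0.77 ± 0.05 (SE), a fold of 0.588, with an adjusted p of 1.79e-21. It was negative in 4 of 4 treatments, with differences of mean log2 CPM of -0.89 to -0.65. In bulk samples, fewer cells with the transcript and less of it per cell cannot be told apart.

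The other lines had smaller differences in GSTP1. The log2 fold change was -0.36 ± 0.05 in FGFR1 (adjusted p = 1.25e-07), -0.29 ± 0.05 in NRF2 (4.22e-06) and -0.18 ± 0.06 in NRG1 (0.0416), each against HcRed with limma. It was -0.27 ± 0.05 in FAT1 (1.26e-06) and -0.32 ± 0.05 in CDKN2A (1.78e-07), each against GFP. The direction was the same in 4 of 4 treatments in FGFR1, NRF2, FAT1 and CDKN2A and in 3 of 4 in NRG1. The NRG1 call did not pass when replicate 1 (adjusted p = 0.28) or replicate 3 (0.0941) was left out of every combination. With DMSO samples alone the calls were also lost in FAT1 (-0.19, 0.0932), FGFR1 (-0.29, 0.0571) and NRG1 (-0.16, 0.443). With the trend of each sample over GC content and gene length removed, the values were -0.52 in FAT1 and -0.56 in CDKN2A, and GFP was then above HcRed by 0.30 (adjusted p = 1.8e-10) where the counts as deposited gave 0.10 (0.054). GSTP1 has a GC content of 62.7%. The median log2 fold change of genes with a GC content of 60% or more was 0.26 in FAT1 and 0.21 in CDKN2A.

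The NRF2 line overexpresses the factor that binds AREs, and 0 of the 10 members passed the threshold as higher in it. With DMSO alone, NRF2 samples were at 273, 300 and 267 CPM for GSTP1, all below the 307 to 390 CPM of HcRed. The log2 fold change was -0.27 ± 0.09 with an adjusted p of 0.0408, and it was the only one of 10 members past the threshold, with 3.90% of all genes called lower and 3.26% higher. That call was lost without HcRed replicate 1 (adjusted p = 0.0806), HcRed replicate 2 (0.206), NRF2 replicate 1 (0.217) or NRF2 replicate 3 (0.127). With CSC, NRF2 samples were at 403, 370 and 384 CPM and HcRed samples at 592, 528 and 442 CPM, a log2 fold change of -0.42 ± 0.09 (adjusted p = 0.000307). GSTM3 was also lower with CSC, at 21.6 to 29.2 CPM against 35.2 to 52.2 (-0.79 ± 0.24, adjusted p = 0.033), a call lost when any of 5 of the 6 libraries was left out (adjusted p from 0.0612 to 0.147, HcRed replicate 2 excepted). The difference of mean log2 CPM of GSTM3 between NRF2 and HcRed was -0.23 with DMSO, 0.01 with BaP and 0.74 with NNK, none of which was tested by itself apart from DMSO (adjusted p = 0.715). With CSC, 2.68% of all genes were lower and 2.19% higher. GSTK1 with DMSO (0.40, adjusted p = 0.205) was not called by limma but had an unadjusted p under 0.05. The same held with CSC for GSTA4 (0.64, 0.276) and MGST1 (0.20, 0.246), both higher, and GSTO1 (-0.45, 0.102), lower. Of all genes, 2806 of 14035 with DMSO and 2454 of 14315 with CSC had an unadjusted p under 0.05. Over all treatments 1 of 10 members was lower and 0 higher, with 11.2% and 10.4% of all genes. At an unadjusted p under 0.05 by limma, 3 of 10 members differed over all treatments, as did 4625 of all 14242 genes. By adjusted p, edgeR and DESeq2 each called 1 member. The members' median log2 fold change was -0.01 with DMSO and 0.02 over all treatments, beside 0.00 for all genes. The interval of the EPHX1 difference over all treatments was -0.12 to 0.26 and that of MGST1 was -0.03 to 0.20.

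GSTM3 (chr1:110276554-110283660, minus strand), a mu class enzyme, was higher in both knockout lines. With DMSO it was at 59.5, 55 and 58.4 CPM in FAT1, at 51, 59.5 and 45.1 CPM in CDKN2A and at 25.1, 17.3 and 23.3 CPM in GFP, with no overlap. Over all treatments the log2 fold change was 1.0 ± 0.11 in FAT1 (adjusted p = 8.5e-12) and 0.81 ± 0.12 in CDKN2A (1.28e-08), positive in 4 of 4 treatments in both. Both values use the same GFP samples, and CSC-treated GFP cells, at 43.7 to 50.2 CPM, reached the range of the knockouts. GFP and HcRed had a mean log2 CPM of 4.96 and 4.94 for GSTM3, with a log2 fold change interval of -0.24 to 0.24 between them.

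GSTK1 (chr7:142941186-142967947, plus strand), the kappa class enzyme of mitochondria and peroxisomes, differed in opposite directions in the 2 knockouts. It was at 24.6, 35.9 and 29.8 CPM in CDKN2A with DMSO, at 40.6, 69.1 and 56.6 CPM in GFP and at 80.8, 66.6 and 80.9 CPM in FAT1. Over all treatments the 12 CDKN2A samples lay between 20.8 and 37.6 CPM, all below the 40.6 to 102 CPM of GFP, with a log2 fold change of -0.98 ± 0.12 (adjusted p = 4.04e-11). In FAT1 it was 0.31 ± 0.10 (0.00465), a call lost without replicate 1 of each combination (0.146). The difference between FAT1 and CDKN2A itself was not tested.

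Of the 3 members that are membrane-bound enzymes of the MAPEG family, 2 were lower in CDKN2A cells, where 28.3% of all genes were lower. MGST1 (chr12:16500076-16762193, plus strand), which conjugates glutathione and reduces lipid peroxides, was at 125, 119 and 128 CPM in CDKN2A with DMSO and at 190, 206 and 233 CPM in GFP. Its log2 fold change over all treatments was -0.68 ± 0.06 (adjusted p = 2.27e-16), between -0.75 and -0.56 in the 4 treatments. MGST3 (chr1:165600450-165631033, plus strand), a glutathione-dependent peroxidase, fell by 0.65 ± 0.12 (3.35e-06), from 30.2 to 52.2 CPM in GFP to 18.6 to 33.9 CPM. MGST3 also differed between the control lines, with GFP above HcRed by 0.59 ± 0.12 (1.6e-05), and CDKN2A had a mean log2 CPM of 4.79 beside 4.81 in HcRed. MGST2 (chr4:140586922-140661899, plus strand), which can also form leukotriene C4, was not past the threshold in CDKN2A (0.22 ± 0.24) and was lower in GFP than in HcRed (-0.74 ± 0.21, adjusted p = 0.0028). Without replicate 2 of each combination that last value was -0.61 (0.0644).

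In all, CDKN2A cells had 6 of 10 members lower and 2 higher than GFP, with 28.3% of all genes lower and 29.4% higher, and a members' median log2 fold change of -0.29 beside 0.00 for all genes. The other members lower were UGT1A6 (-0.63 ± 0.25, adjusted p = 0.0239) and GSTO1 (-0.26 ± 0.09, 0.0156), and the other member higher was GSTA4 (0.47 ± 0.17, 0.0168). These 3 calls did not hold with DMSO samples alone, where the values were -0.012 for UGT1A6, -0.044 for GSTO1 and 0.51 for GSTA4, and each was lost without 1 replicate number (for GSTO1 2 or 3, adjusted p = 0.101 and 0.108, for GSTA4 1 or 2, 0.135 and 0.24, and for UGT1A6 1 or 2, 0.146 and 0.127). FAT1 cells had 4 of 10 higher and 1 lower, with 25.0% of all genes higher and 23.9% lower. The 4 higher were GSTM3, GSTK1, MGST1 (0.17 ± 0.05, adjusted p = 0.00653) and EPHX1 (0.44 ± 0.11, 0.000515). EPHX1 lost its call without replicate 1 (0.118), and MGST1 without replicate 2 (0.0818) and with DMSO samples alone (0.10, 0.485). The difference of mean log2 CPM of EPHX1 was 0.95 with DMSO and between 0.13 and 0.31 with the chemicals. Those of GSTK1 and MGST1 were positive in 3 of 4 treatments, with -0.15 and -0.06 with NNK. GFP against HcRed, with no targeted gene, had 2 of 10 members higher and 2 lower, with 22.2% and 22.8% of all genes. With DMSO samples alone none of these 4 passed by limma (adjusted p from 0.0714 to 0.397).

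PIK3CA cells had 1 of 10 members higher and 3 lower than HcRed, with 14.0% and 13.8% of all genes. GSTO1 (chr10:105995114-106027217, plus strand), an omega class enzyme that reduces dehydroascorbate and methylated arsenic, was the higher one (0.34 ± 0.08, adjusted p = 0.000607), at 54.5 to 119 CPM against 58.4 to 81.6. Its call was lost without replicate 2 (0.171) and with DMSO samples alone (0.16, adjusted p = 0.58). GSTA4 (chr6:52842746-52860102, minus strand), an alpha class enzyme that conjugates the lipid aldehyde hydroxynonenal, was lower (-0.64 ± 0.19, 0.00614, and 0.0517 without replicate 2). With DMSO samples alone the GSTA4 call was lost (-0.70, adjusted p = 0.167). Its difference of mean log2 CPM was negative in 4 of 4 treatments, from -1.29 with NNK to -0.03 with BaP. UGT1A6 (chr2:234600253-234681946, plus strand), which glucuronidates small phenols, had the largest fold change of the members, at -1.70 ± 0.29 (2.53e-06). PIK3CA samples held 0 to 5 reads and 0 to 5.07 CPM of it, HcRed samples 2.85 to 13.3 CPM, and the difference was negative in 4 of 4 treatments. With DMSO alone it was -1.42 with an adjusted p of 0.162. In FGFR1, 1 of 10 members was lower (GSTP1) and 6.23% of all genes were. In NRG1, GSTP1 and GSTA4 (-0.60 ± 0.20, adjusted p = 0.0469) were lower, with 4.91% of all genes. The GSTA4 call in NRG1 was lost without any 1 of the 3 replicate numbers (adjusted p = 0.0678, 0.0754 and 0.396).

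**Figure D2:**
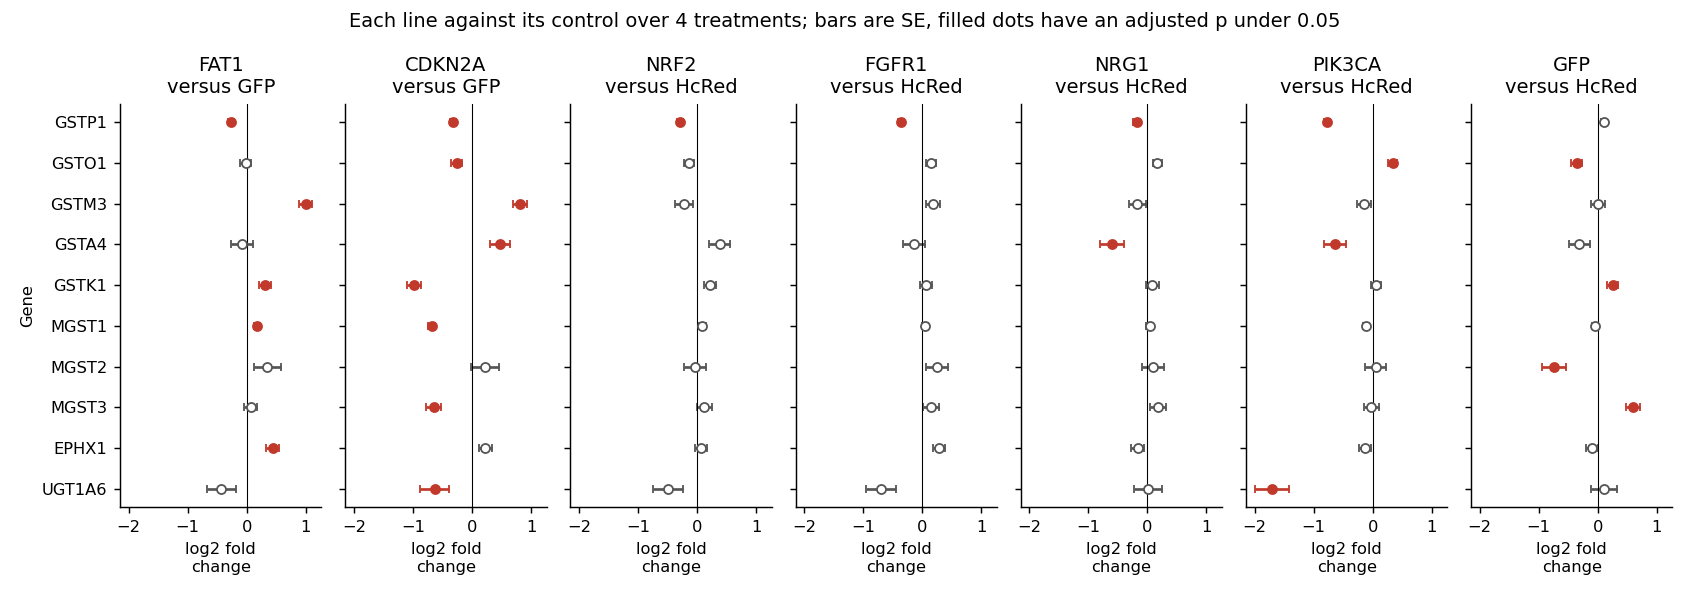
Log2 fold change (x axes) with its SE of the 10 genes (y axis) in each line against its control over 4 treatments, and of the GFP control against the HcRed control, with filled dots where the adjusted p was under 0.05. GSTP1 lies below 0 in the 6 perturbed lines, GSTM3 lies above 0 in FAT1 and CDKN2A at 1.0 and 0.81, and UGT1A6 in PIK3CA lies at -1.70.

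Against DMSO, members past the threshold were higher with each chemical, apart from MGST1 with NNK. With CSC and NNK the change of GSTP1, the most GC-rich member, was close to the median of genes of like GC content. Over the 8 genotypes with genotype in the model, 5 of 10 members were higher with CSC and 0 lower, 6 were higher with BaP and 0 lower, and 3 were higher and 1 lower with NNK. Of all genes, 27.2% were higher and 28.4% lower with CSC, 26.4% higher and 25.1% lower with BaP, and 25.9% higher and 25.8% lower with NNK. The members' median log2 fold change was 0.24, 0.24 and 0.08, beside -0.01, 0.01 and 0.00 for all genes. Genes with a GC content under 40% had a median of -0.29 with CSC, -0.24 with BaP and -0.27 with NNK, and genes with 60% or more had 0.50, 0.46 and 0.48. The part of this trend in a gene's change was removed by a loess fit of each sample over GC content and exon length. In that fit 4 members were higher and 1 lower with CSC, 7 and 1 with BaP, and 2 and 1 with NNK, with 34.4%, 25.3% and 17.5% of all genes called in either direction. Whether the trend is technical was not tested.

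EPHX1 (chr1:225997826-226033264, plus strand), the microsomal epoxide hydrolase, was higher with all 3 chemicals in both fits. DMSO samples had a lowest value of 19.3, a median of 29.8 and a highest value of 49.1 CPM. CSC samples were at 33, 55.7 and 88.5 CPM, BaP samples at 38.4, 50.4 and 82.1 CPM and NNK samples at 29.1, 47.8 and 73.7 CPM by the same 3 measures. The groups overlapped over all genotypes, and the mean was above that of DMSO in 8 of 8 genotypes for each chemical. The log2 fold change was 0.80 ± 0.08 with CSC (adjusted p = 1.43e-15), 0.74 ± 0.08 with BaP (2.81e-14) and 0.60 ± 0.08 with NNK (1.07e-10). With the trend removed it was 0.48 (6.05e-08), 0.45 (5.55e-07) and 0.32 (0.000707). EPHX1 has a GC content of 57.4%, and the median of genes between 55% and 60% was 0.31, 0.31 and 0.32.

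GSTP1 rose in the counts as deposited and not beyond its GC band with CSC or NNK. Its lowest, median and highest values were 177, 296 and 390 CPM with DMSO, 299, 403 and 592 with CSC, 281, 456 and 599 with BaP, and 227, 381 and 543 with NNK. The mean was above DMSO in 8 of 8 genotypes for each chemical. The log2 fold change was 0.54 ± 0.03 with CSC (adjusted p = 8.56e-26), 0.60 ± 0.04 with BaP (6.78e-23) and 0.43 ± 0.03 with NNK (1.5e-19). With the trend removed it was 0.033 with CSC (0.431), 0.14 with BaP (0.000183) and -0.0011 with NNK (0.988).

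MGST1, with a GC content of 38.7%, rose with CSC and BaP while genes of its GC band had a negative median. That GC content is of all annotated exons of MGST1 joined, 7441 bases, and the transcript used for levels per kilobase has 925 bases. The GC band and the removed trend rest on the joined exons, and the GC content of that transcript was not computed. The values of MGST1 below are from all its reads. Its lowest, median and highest values were 119, 211 and 249 CPM with DMSO, 154, 286 and 338 with CSC, 126, 230 and 300 with BaP and 110, 181 and 249 with NNK. Its mean was above DMSO in 8 of 8 genotypes with CSC and in 7 of 8 with BaP, both in CPM and in log2 CPM. With NNK the mean log2 CPM was below that of DMSO in 8 of 8 genotypes (differences of -0.36 to -0.00), although in NRG1 cells the mean CPM was 203 with NNK and 202 with DMSO. The log2 fold change was 0.40 ± 0.04 with CSC (adjusted p = 2.85e-16), 0.18 ± 0.04 with BaP (8.48e-05) and -0.16 ± 0.04 with NNK (0.00155). With the trend removed the CSC and BaP values were larger, 0.68 (3.19e-32) and 0.41 (7.61e-15), and the NNK value turned to 0.11 (0.0591).

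UGT1A6 and GSTM3 rose with CSC and BaP under both fits. In the control lines alone, the BaP calls of GSTM3 (0.47, adjusted p = 0.0525) and MGST1 (0.17, 0.108) were lost. UGT1A6 had a median of 3.88 CPM with DMSO, 8.58 with CSC, 7.53 with BaP and 4.87 with NNK. Its log2 fold change was 0.89 ± 0.18 with CSC (adjusted p = 1.15e-05), 0.98 ± 0.18 with BaP (2.45e-06) and 0.39 ± 0.20 with NNK (0.105). The mean log2 CPM rose in 8 of 8 genotypes with BaP and in 7 of 8 with CSC, where PIK3CA had a difference of -0.34. GSTM3 had medians of 26.5, 44.3, 36.1 and 28.3 CPM with DMSO, CSC, BaP and NNK. Its log2 fold change was 0.49 ± 0.08 with CSC (2.09e-07), 0.42 ± 0.07 with BaP (1.15e-06) and 0.02 ± 0.09 with NNK (0.89). The NNK interval was -0.15 to 0.19. With CSC the difference of mean log2 CPM of GSTM3 was between 0.09 and 0.22 in FAT1, CDKN2A, NRF2 and NRG1. It was between 0.64 and 1.01 in the other lines. UGT1A6 and GSTM3 have a GC content near the middle of the range, 47.2% and 47.5%. The trend removal left UGT1A6 at 0.93 and 1.01 and GSTM3 at 0.52 and 0.45 with CSC and BaP.

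GSTK1 rose with BaP (0.31 ± 0.07, adjusted p = 9.78e-05, and 0.24 with the trend removed) and with NNK (0.19 ± 0.07, 0.0256). The NNK call was lost with the trend removed (0.12, 0.234) and without any 1 of the 3 replicate numbers (adjusted p from 0.0564 to 0.0813). GSTO1, GSTA4, MGST2 and MGST3 had log2 fold changes between -0.19 and 0.15 with the 3 chemicals, none past the threshold. With the trend removed, GSTO1 was lower with CSC (-0.21, 0.00221), BaP (-0.17, 0.0146) and NNK (-0.23, 0.00485), MGST3 was higher with BaP (0.26, 0.018) and GSTA4 was higher with NNK (0.38, 0.0203).

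**Figure D3:**
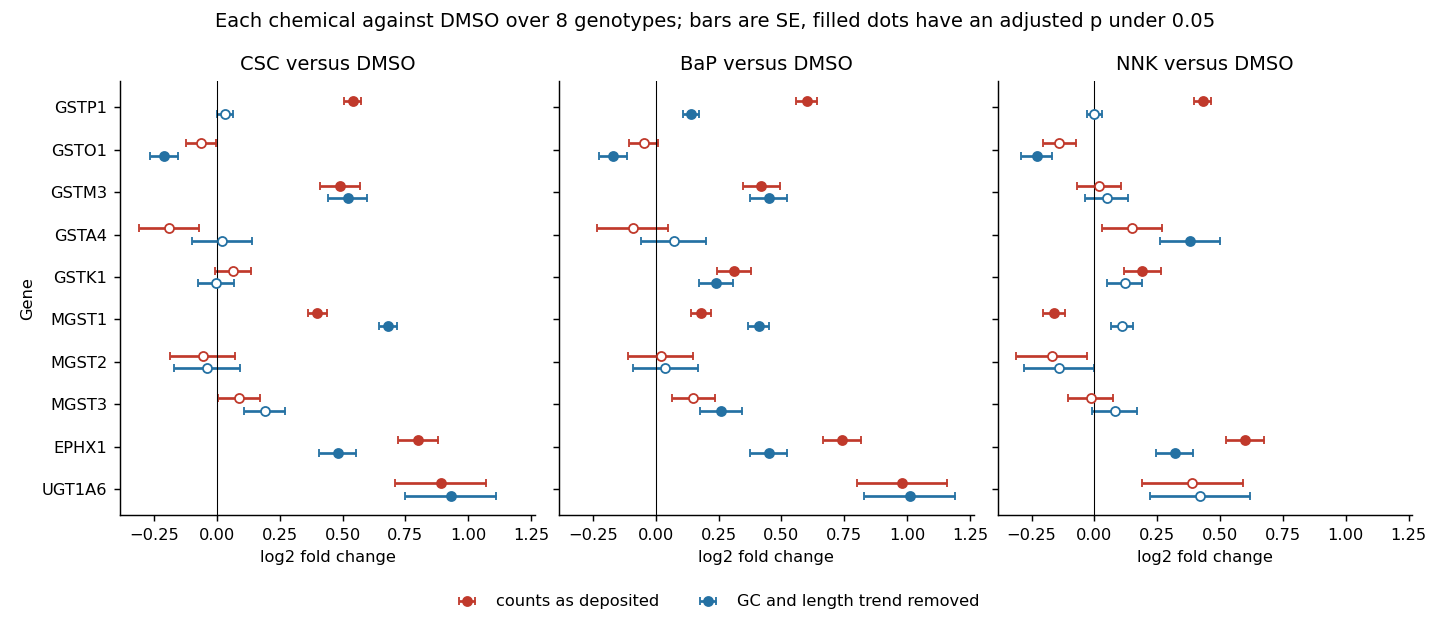
Log2 fold change (x axes) with its SE of the 10 genes (y axis) for CSC, BaP and NNK against DMSO over 8 genotypes, from the counts as deposited and with the trend over GC content and length removed, with filled dots where the adjusted p was under 0.05. EPHX1 stays above 0 with all 3 chemicals, GSTP1 moves from 0.54 to 0.033 with CSC, and MGST1 moves from 0.40 to 0.68.

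**Figure D4:**
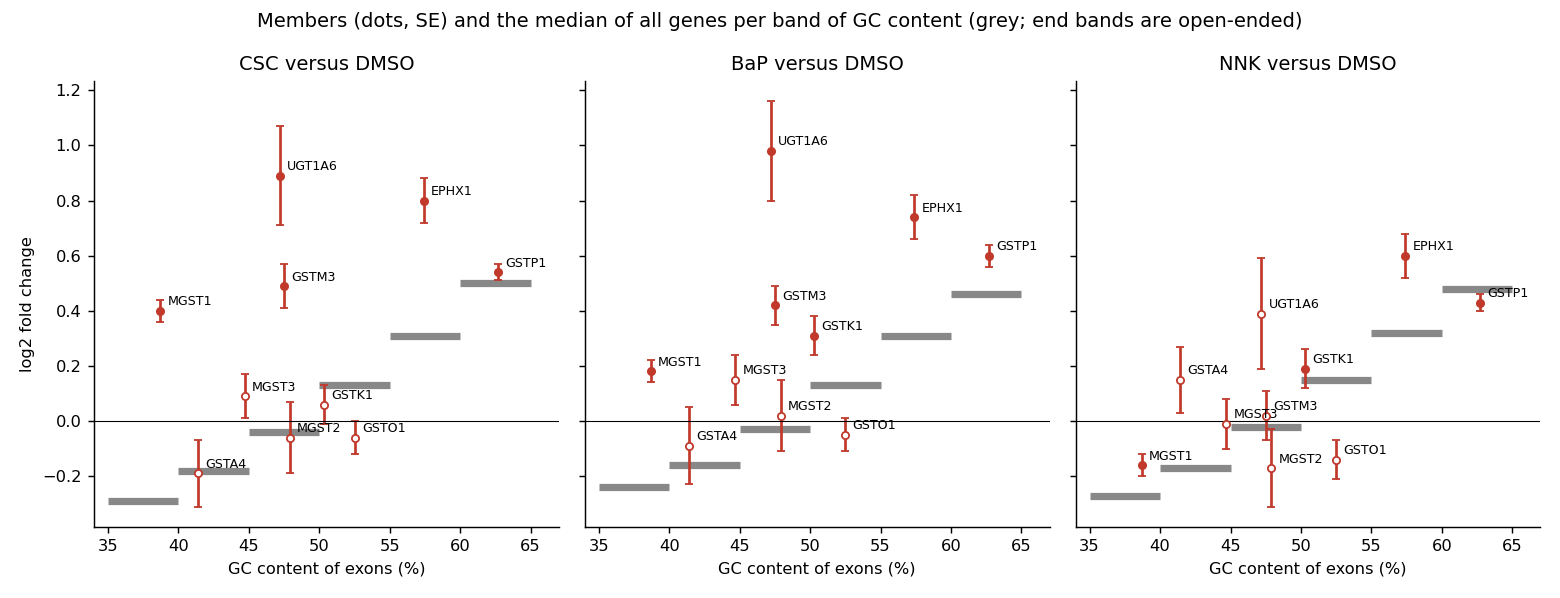
Log2 fold change with its SE (y axis) of the 10 genes against the GC content of their exons in percent (x axes) for CSC, BaP and NNK against DMSO, with filled dots where the adjusted p was under 0.05 and grey bars for the median of all genes averaging 10 or more reads in 6 bands of GC content. GSTP1, at a GC content of 62.7%, lies near the bar of its band with CSC and NNK and above it with BaP, while MGST1, at 38.7%, lies above the bar of its band.

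The response to CSC alone was next compared between the HcRed and NRF2 lines. In HcRed, 4 of 10 members were higher and 12.7% of all genes were: EPHX1 from 23.3, 28.8 and 29.5 CPM to 62.1, 57.8 and 56.3 (1.12 ± 0.20, adjusted p = 1.34e-05), GSTM3 (0.83 ± 0.22, 0.00328), GSTP1 (0.62 ± 0.09, 2.55e-08) and MGST1 (0.35 ± 0.10, 0.00569). The DMSO and CSC samples of these 4 genes did not overlap. The genes were picked by their calls in the same samples, so this adds no support to the calls. The share of all genes without overlap was not computed. Without HcRed DMSO replicate 1, GSTM3 (0.0973) and MGST1 (0.121) lost their calls, and with the trend removed GSTP1 was at -0.013 (0.958). In NRF2, 3 of 10 were higher and 4.88% of all genes were, namely EPHX1 from 36.8, 40.4 and 24.4 CPM to 55.7, 63.3 and 52.7 (0.77 ± 0.21, adjusted p = 0.00812), MGST1 (0.53 ± 0.10, 3.03e-05) and GSTP1 (0.47 ± 0.08, 1.54e-05). EPHX1 in NRF2 was at an adjusted p of 0.117 without NRF2 DMSO replicate 3, and with the trend removed both EPHX1 (0.54, 0.124) and GSTP1 (0.074, 0.742) were past the threshold no longer. The difference between the 2 responses was tested as an interaction. By limma 0 of 10 members passed, with 0.0490% of all genes higher and 0.189% lower, and edgeR and DESeq2 also called 0. By limma 1 of 10 members (GSTO1, -0.46 ± 0.22) had an unadjusted p under 0.05, as did 1422 of all 14277 genes. The interaction intervals were wide, -0.40 to 0.09 for GSTP1, -0.91 to 0.23 for EPHX1 and -0.10 to 0.47 for MGST1.

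Of 65 other conjugating and related enzymes, 24 to 29 passed the filter in each comparison. With CSC 8 of 27 rose and 6 fell, with BaP 7 of 27 rose and 5 fell, and with NNK 7 of 27 rose and 4 fell, with medians of 0.16, 0.17 and 0.07. Of all genes, 27.2%, 26.4% and 25.9% were higher and 28.4%, 25.1% and 25.8% lower with CSC, BaP and NNK. With the trend removed the counts of the 27 enzymes were 5 and 3, 3 and 1, and 1 and 0. Of all genes, 34.4%, 25.3% and 17.5% were then called in either direction. PTGES, a MAPEG enzyme that makes prostaglandin E2, rose with CSC by 0.97 ± 0.05 (adjusted p = 1.32e-34, and 0.66 with the trend removed) and with BaP by 0.65 ± 0.05 (0.38). GSTO2, the other omega class gene, rose with CSC (0.44 ± 0.15, 0.00857, and 0.43 with the trend removed). UGP2, which makes the UDP-glucose used for glucuronidation, fell with each chemical (by 0.28, 0.27 and 0.33), and none of these calls held with the trend removed.

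In the lines, 9 of 29 of these other enzymes were higher and 4 lower in CDKN2A, with 29.4% and 28.3% of all genes. In FAT1, 6 of 29 were higher and 7 lower, with 25.0% and 23.9% of all genes. GSTM1, like GSTM3 of the mu class, was higher in CDKN2A (1.24 ± 0.22, adjusted p = 1.19e-06), at 10.3 to 21.5 CPM against 1.88 to 12.8 in GFP, and its reads could be split with other mu class genes. PTGES was lower in CDKN2A (-1.15 ± 0.07), FAT1 (-0.54 ± 0.07), FGFR1 (-0.48 ± 0.06) and NRF2 (-0.26 ± 0.06). UGT8, a galactosyltransferase of this family, was at 19.3 to 32.1 CPM in GFP, 0 to 2.88 in HcRed and 0 to 8.93 in FAT1. PIK3CA had 3 of 26 higher and 4 lower, with 14.0% and 13.8% of all genes. PAPSS2, which makes the sulfate donor of sulfotransferases, was among the higher ones (1.36 ± 0.21, adjusted p = 3.65e-07). NRF2 had 4 of 27 higher and 5 lower over all treatments, with 10.4% and 11.2% of all genes. EPHX2, the soluble epoxide hydrolase, was higher by 0.64 ± 0.19 (adjusted p = 0.00902).

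Over the 32 combinations, the genes with the pattern of mean log2 CPM most like GSTP1 were PFKL (Pearson's r = 0.89), AHDC1 (0.87) and ALDH3A1 (0.84). Those most like EPHX1 were MKNK2 (0.87), FOSL2 (0.85) and PLXNA3 (0.85), and those most like MGST1 were RPL37A (0.87), PARP12 (0.86) and ZDHHC3 (0.81). For GSTM3 they were RPS4X, PSMD4 and PSMC5 (0.87, 0.86 and 0.85). The 27 pairs of 9 members with their 3 most alike genes had r between 0.71 and 0.89, chosen as the highest of 10062 genes. Between members, GSTP1 and EPHX1 had r = 0.58, and 0.92 for deviations from the genotype mean, over points that share libraries and a GC content above 55%.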

How the data were processed

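Barcoded SFL libraries of 95 AALE samples were sequenced as single reads of 75 bases. The authors trimmed reads with cutadapt 1.12, checked them with FastQC 0.11.5, aligned them to hg19 with STAR 2.5.2b and counted them over RefSeq genes with featureCounts of the Subread package. The authors deposited raw read counts per gene, 1 file per sample, with no normalization. The strand setting, the treatment of reads over several genes and any removal of duplicates are not given in the sources used here, so reads of a gene and of an antisense partner cannot be told apart, and the limits set by depth cover counting error only.

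Samples were grouped by the labels. Counts were scaled by TMM (edgeR 4.0.16) and tested with limma 3.58.1 (voom, empirical Bayes, 2-sided) in R 4.3.3, over genes that averaged more than 1 read across the samples of a fit, with Benjamini-Hochberg adjustment over all of them and a threshold of 0.05. Comparisons of lines had treatment as a covariate and comparisons of chemicals had genotype. Log2 CPM used a prior count of 2, and intervals are at 95%. The tests were repeated with DESeq2 1.42.0, with the quasi-likelihood test of edgeR, with DESeq2 size factors, with genes averaging 10 or more reads, no filter, a replicate block, a loess trend (span 0.3) over GC content and exon length removed, subsets of samples and replicates left out. Leaving out the 8 libraries with NRG1 reads above 60 CPM was added after seeing the data. Gene models were GENCODE annotation on GRCh37, matched to 24207 symbols (86.5%). GC content and exon length were taken over all annotated exons of a gene joined, which can be much longer than 1 transcript. The scripts were tested on simulated data.

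The members and the lists of other enzymes and markers were chosen with earlier results of these data known. Apart from members, the text names, per comparison, at most the 5 called genes of the other list with the largest changes among those averaging 10 or more reads, and, for 4 members at that level, chosen after their values were seen, the 3 genes of highest r. A gene of the other list that falls under this rule is not reported here.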

Additional observations from a re-analysis of the deposited data

Results flagged for a closer look

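For 3 genes, every sample of some lines lay on one side of the DMSO samples of that line while every sample of another line lay on the opposite side. The differences between lines were not tested, and all values are differences of mean log2 CPM from DMSO with 2 or 3 samples a group. Groups this small can separate fully by chance, and the rule was applied to every member, line and chemical. The share of all genes with such opposite separations was not computed. Whether members had more of them than chance would give was therefore not tested, and no response specific to a line is inferred. With CSC, UGT1A6 was higher in FGFR1 (1.19), GFP (1.01) and NRG1 (1.23) and lower in PIK3CA (-0.34), where each sample held few reads. With CSC, GSTO1 was lower in CDKN2A (-0.40) and NRF2 (-0.38) and higher in PIK3CA (0.35). With BaP, GSTO1 was lower in CDKN2A (-0.24) and higher in FAT1 (0.25). With NNK, GSTA4 was higher in GFP (0.74) and lower in NRG1 (-0.88) and PIK3CA (-0.40).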

How the results depend on the processing

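Of 150 values (10 genes in 15 comparisons), 50 passed the threshold. Of these, 20 kept their call and direction in every alternative run that tested the gene. A run whose filter removed the gene was not counted as a loss. Of the 100 others, 11 passed in some alternative. With the trend over GC content and length removed, 3 called values changed sign: GSTP1 with NNK (-0.0011), MGST1 with NNK (0.11) and GSTP1 with CSC in HcRed (-0.013). In that fit FGFR1 had 3 members called (1 as deposited) and CSC in NRF2 had 1 (3 as deposited). By DESeq2 the numbers called were 0 for NRF2 with DMSO, 1 for NRF2 with CSC, 2 for FGFR1, 0 for NRG1 and 2 for CSC in HcRed. The CSC response of NRF2 cells had 2 by that test, with EPHX1 at 0.76 (adjusted p = 0.186). By edgeR there were 3 for FGFR1, and with a mean count of at least 10 there were 2. With no filter there were 0 for NRF2 with DMSO and 0 for NRG1. With DMSO samples only, which leaves fewer samples, there were 3 for FAT1, 5 for CDKN2A, 0 for FGFR1, 0 for NRG1, 1 for PIK3CA and 0 for GFP against HcRed, and with the control lines only there were 4 for BaP and 2 for NNK. The causes of the other changes were not tested.

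In comparisons of 3 against 3 samples and in the interaction, 1 library was left out at a time. In comparisons over all treatments or genotypes, every sample with 1 replicate number was left out at a time. Leaving out replicates gave 0 to 1 members called for NRF2 with DMSO and 1 to 2 for NRF2 with CSC. It gave 3 to 6 for FAT1, 6 to 7 for CDKN2A, 1 to 2 for FGFR1 and 0 to 1 for NRG1. For PIK3CA it gave 2 to 5, and for NRF2 over all treatments 1. It gave 2 to 5 for GFP against HcRed, 5 for CSC, 6 for BaP, 3 for NNK, 2 to 4 for CSC in HcRed, 2 to 3 for CSC in NRF2 and 0 for the interaction. Samples with the same replicate number correlated little. The comparisons of 3 pairs had r from 0.00255 to 0.0969, and of the pairs over all treatments or genotypes, 10 of 360 with BaP (highest 0.178), 3 of 84 in NRF2 (0.157), 3 of 77 in FGFR1 (0.152) and 2 of 84 in NRG1 (0.184) were over 0.1. In no comparison was every pair over 0.1, and the numbers were not taken to pair samples. With that number as a replicate block NRG1 had 1 member called, with GSTA4 at -0.57 (adjusted p = 0.0661). The median likeness of the 27 pairs of members and their most alike genes was 0.85 by Pearson's r, 0.80 by Spearman's rho and 0.63 for deviations from the genotype mean. Depth limited UGT1A6, MGST2 and GSTA4 most, with medians of 5, 9 and 12 reads per sample.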
